A study of Mus musculus with 12 samples.

Results

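The comparison described here is the effect of RORγt deficiency on the A5-negative cells of the mouse skin wound edge, across all measured genes. It uses 6 of the 12 libraries of the series, 3 from RORγt-deficient and 3 from wild-type mice, chosen by their labelled genotype and A5 status. Every mouse had been wounded 3 days before the skin was taken. A ring of skin 0.25 mm wide was cut at the wound margin, and live Epcam-positive, integrin α6-positive epithelial cells were sorted from it after CD45, CD31 and CD117-bearing cells had been gated out. The cells without surface integrin α5 make up the A5-negative fraction, which the labels call wound edge. The fraction with integrin α5, called migrating tongue, gave the other 6 libraries. The deficient mice carried a GFP knock-in, as the sample titles give it. Strain, age and sex are not given. Each library comes from 2 or 3 pooled mice, so every p-value given refers to pools and not to single mice. Each number from 1 to 3 occurs once in every group and marks libraries that deviated together, so it was kept as a block, and a deficient and a wild-type pool of the same number are called a pair.

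RORγt is the transcription factor that lymphocytes need to produce IL-17, among them γδ T cells, T helper 17 cells and group 3 innate lymphoid cells. IL-17A binds a receptor of IL17RA and IL17RC on keratinocytes and acts through the adaptor ACT1 and TRAF6 on NF-κB, mRNA stability and the inducer IκBζ. In skin this pathway is known for antimicrobial proteins, neutrophil-attracting chemokines and the closing of wounds. Since the sorted cells are epithelial, the comparison asks which epithelial transcripts differ between animals with and without RORγt.

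Of 16677 genes tested, 1 passed an adjusted p of 0.05 in the quasi-likelihood test of edgeR (0.00600%), and it is the pseudogene Gm3608. The next lowest adjusted p was 0.0584, and 63 genes were under 0.15. Without adjustment, p was under 0.05 for 1470 genes that were higher without RORγt (8.81%) and for 1052 that were lower (6.31%). The median change over all genes was 0.01 on the log2 scale. In all 3 pairs the deficient pool was higher for 3409 genes (20.4%) and lower for 3456 (20.7%). These shares are the background for the gene groups below. Single pools weighed on the unadjusted counts. Without deficient pool 1 they were 690 higher and 553 lower, and without all libraries numbered 1 they were 847 and 539. Higher genes made up 58.3% of the 2522, but 46.5% without wild-type pool 2, where 775 were higher and 890 lower, and 45.9% without wild-type pool 3.

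The number of calls depended on the tool, the filter and the libraries in the fit, and the cause was not tested. DESeq2, on the same libraries and design, called 406 genes higher (3.43%) and 229 lower (1.94%) of the 11827 for which it gave an adjusted p. With no filter on low counts, edgeR called 475 of 32335. In the 6 A5-negative libraries alone, edgeR with the block called 5 genes, which were Gm3608, Hs3st1, Mmp10, Mmp13 and Mmp3. In the filtered fit of all 12 libraries without the block it called Gm3608 alone, and 849 genes had an unadjusted p under 0.05. Every other gene described below did not pass the edgeR test over all 12 libraries, and is described as higher or lower by its values.

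**Figure D1:**
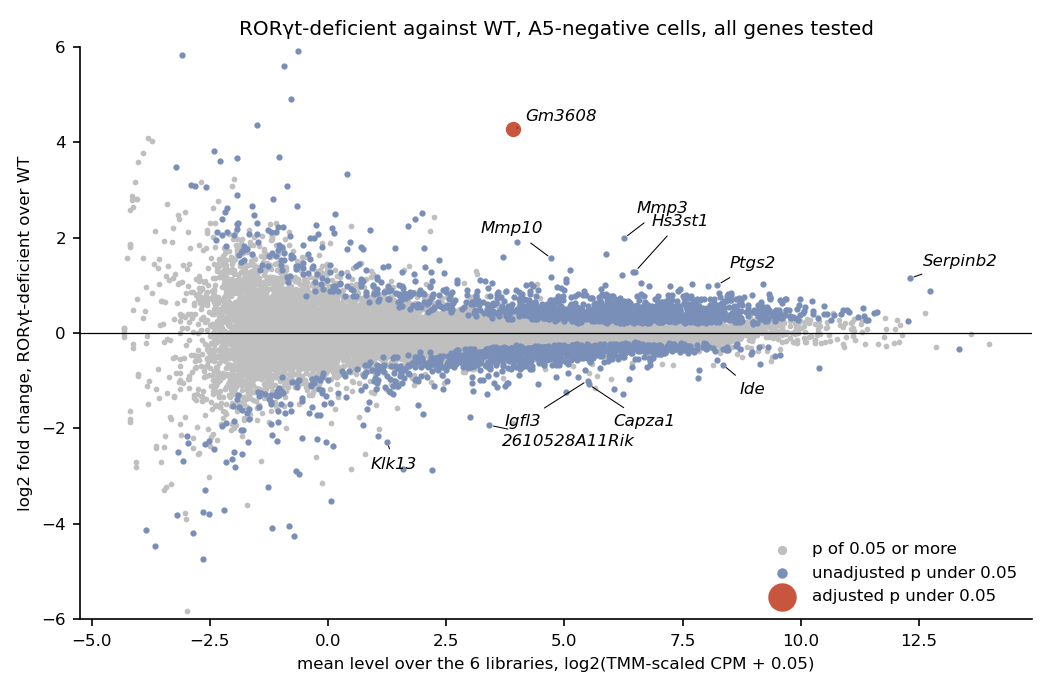
Log2 fold change (RORγt-deficient over wild type, vertical axis) against the mean level of each gene over the 6 A5-negative libraries (horizontal axis, log2 of TMM-scaled CPM plus 0.05). Each point is 1 of 16677 genes, and 3 genes with changes beyond 6 in size lie outside the plot; Gm3608, the large point, is the only gene with an adjusted p under 0.05.

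Gm3608 rose from 1.45, 1.55 and 1.40 CPM in wild-type pools 1 to 3 to 29.6, 26.1 and 29.98 CPM in the deficient pools (log2 fold change 4.28 ± 0.15 SE, edgeR adjusted p = 1.88e-07). CPM here and below means read counts scaled to library size with TMM factors. The groups lay far apart, with little spread inside each. It is named although it falls outside the rule for named genes, since it was the single call. Gm3608 lies at chr1:105455971-105458829 (GRCm38) and is annotated as a pseudogene. Its sequence was 99.55% identical over 2859 bases to Capza1, which encodes the α1 subunit of the actin-capping protein CapZ and lies at chr3:104822779-104864505. Capza1 itself was at 61.3, 62.4 and 60.5 CPM in the wild-type pools and at 24.9, 39.5 and 25.3 CPM in the deficient pools. Its change was -1.08 ± 0.17 and did not pass (edgeR adjusted p = 0.0841). Added together, the 2 genes had 62.7, 63.9 and 61.8 CPM in wild-type pools and 54.5, 65.6 and 55.2 CPM in deficient pools. The sums of the genotypes overlap, while neither gene alone overlaps. In the A5-positive cells Gm3608 showed the same pattern, with 1.64, 1.56 and 1.51 CPM in wild-type and 24.5, 24.2 and 28.5 CPM in deficient pools.

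**Figure D2:**
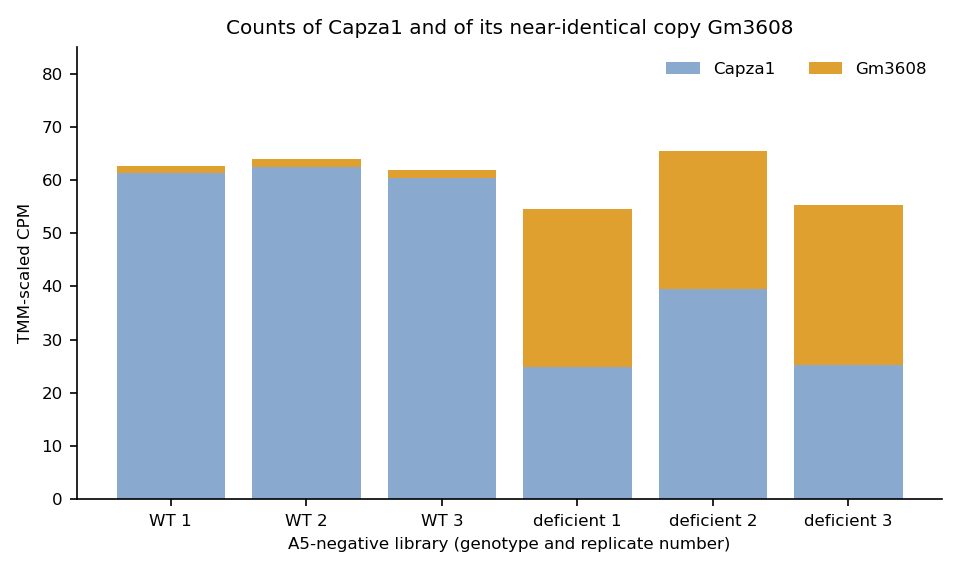
Stacked bars of TMM-scaled CPM for Capza1 (blue) and Gm3608 (yellow) in each A5-negative library, by genotype and replicate number. Gm3608 takes 1.40 to 1.55 CPM in the wild-type pools and 26.1 to 29.98 CPM in the deficient pools, while the whole bars run from 54.5 to 65.6 CPM.

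The sequences show how little separates the 2 genes for a short read. Over the aligned stretch they differ at 13 positions, of which 8 are substitutions, and 3 of those fall in the 858-base coding sequence of Capza1. The 3 stretches around them are printed from the GENCODE M21 transcripts, 5′ to 3′, with the differing base in capitals. Counted from the first base of the Capza1 coding sequence, the substitutions are T543C, A664G and A760G, with the Capza1 base first.
Capza1 at T543C: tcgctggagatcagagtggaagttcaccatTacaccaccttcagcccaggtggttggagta
Gm3608 at T543C: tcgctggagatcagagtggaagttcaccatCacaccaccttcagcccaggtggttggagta
Capza1 at A664G: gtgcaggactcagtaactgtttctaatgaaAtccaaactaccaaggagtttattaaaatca
Gm3608 at A664G: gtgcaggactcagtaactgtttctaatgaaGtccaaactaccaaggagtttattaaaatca
Capza1 at A760G: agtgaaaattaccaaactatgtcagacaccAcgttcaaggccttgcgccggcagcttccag
Gm3608 at A760G: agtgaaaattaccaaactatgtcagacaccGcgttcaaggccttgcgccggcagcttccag
How reads matching several places were counted is not given in the sources used here, so the count of either gene alone is uncertain.

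Among the 30 genes with the lowest p, 8 had a copy of at least 90% identity elsewhere in the genome, and 4 of these copies lie on chromosome 3. They are Capza1, S100a11, Gm20632 and Ankrd35, whose partners in the lowest 30 are Gm3608, Gm7665, Hist1h2al and Gm16011. Each of these partners had a positive change, and counts of such genes are uncertain.

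Il17a had 0 counts in all 12 libraries, where a count of 0 allows up to 3 counts in a library. Krt5, the gene of a basal keratin, was between 9117 and 14993 CPM in the 6 libraries. None of the sort markers passed the test. Epcam had a change of 0.08 ± 0.14 and Itga5 of 0.21 ± 0.14 (edgeR adjusted p = 0.490). Itga6, which encodes integrin α6, was at 525, 822 and 601 CPM in wild-type and 856, 890 and 677 CPM in deficient pools (0.33 ± 0.14, edgeR unadjusted p = 0.0413, adjusted p = 0.310). It was higher in all 3 pairs, with overlapping groups.

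RNA of other cell types varied between pools, and the genotypes overlapped for each list given here. Sums over 16 Langerhans and dendritic cell markers were 4265, 383 and 911 CPM of total counts in wild-type pools 1 to 3 and 1316, 357 and 1374 in deficient pools. The 21 macrophage and monocyte markers summed to 2205, 604 and 854 against 1422, 643 and 1504 CPM. Ptprc, which encodes CD45, the antigen gated out, was at 39.3, 2.74 and 10.7 against 25.3, 3.61 and 22.3 CPM. In both genotypes it was lowest in pool 2, and wild-type pool 1 was highest. T cell markers were low, with sums of 52.0, 30.9 and 28.6 against 33.9, 28.0 and 30.4 CPM, and Cd3e, which marks T cells, was at most 1.22 CPM of total counts. Fibroblast markers summed to 410, 116 and 294 against 648, 84.6 and 157 CPM. Total counts ran from 31656284 to 74563616 in these libraries, with the highest in deficient pool 1. In such samples fewer cells of a type and less RNA per cell cannot be told apart. The part of these differences in the results below was not tested.

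The 10 genes with the smallest p among those that were lower without RORγt and had a mean log2 CPM of at least 3 had changes of -0.60 to -1.93 with edgeR adjusted p-values from 0.0685 to 0.129, and in 8 of them the genotypes did not overlap. Over all 16677 genes tested, the genotypes did not overlap in 2601, and choosing genes by low p favours groups that do not overlap. DESeq2 called all 10, but on the same counts from which they were chosen, so its calls are not independent.

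2610528A11Rik, the mouse counterpart of the ligand of the lymphocyte-homing receptor GPR15, was at 22.1, 13.2 and 14.6 CPM in wild-type and 6.10, 2.09 and 5.59 CPM in deficient pools. All deficient pools were below all wild-type pools (-1.93 ± 0.30, edgeR adjusted p = 0.0685). In A5-positive cells it was at 116, 39.5 and 46.7 against 45.0, 11.6 and 13.2 CPM, a change of -1.61 ± 0.28. Klk13, a kallikrein-related serine protease of stratified epithelia, was named as the member of its list with the smallest p. It was at 3.96, 4.15 and 3.45 against 0.869, 0.573 and 1.02 CPM (-2.28 ± 0.31, edgeR adjusted p = 0.0584). The 3 deficient pools were again all lower, and the genotypes did not overlap. Klk13 was the gene with the lowest p among the members of all 43 lists. It passed the edgeR threshold without wild-type pool 1, without deficient pool 3 and with the length curve described below.

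Igfl3, of the insulin growth factor-like family, was at 66.7, 44.0 and 68.1 CPM in wild-type and 28.4, 21.7 and 40.2 CPM in deficient pools (-0.998 ± 0.15, edgeR adjusted p = 0.0685). Ide, the insulin-degrading enzyme, was at 330, 371 and 509 against 219, 238 and 298 CPM (-0.67 ± 0.10, edgeR adjusted p = 0.0685). For both genes every deficient pool was below every wild-type pool. Scpep1, a serine carboxypeptidase, had a change of -1.28 ± 0.23, and Slc5a1, a sodium-coupled glucose transporter, of -0.91 ± 0.18. The groups of Scpep1 did not overlap, while those of Slc5a1 did. Hmmr, a spindle protein and hyaluronan receptor, was at 17.0, 13.0 and 10.2 CPM against 8.15, 5.47 and 8.22 CPM (-0.90 ± 0.18). Mab21l3 was at 18.9, 18.6 and 18.6 CPM in wild-type and 6.34, 10.6 and 10.9 CPM in deficient pools (-1.05 ± 0.20), with no overlap. Arhgap24, a GTPase-activating protein of small GTPases, had a change of -0.60 ± 0.11 with overlapping groups.

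The 10 genes chosen in the same way among those that were higher include a protease, signalling regulators and cytoskeletal proteins. Their changes ran from 0.54 to 1.91 with edgeR adjusted p-values from 0.103 to 0.117. DESeq2 called all 10, again on the counts from which they were chosen. In 6 the genotypes did not overlap, to be read beside the 2601 of all 16677 genes. Ptgs2, the inducible cyclooxygenase that makes prostaglandin precursors, was at 157, 252 and 194 CPM in wild-type and 460, 455 and 290 CPM in deficient pools (1.01 ± 0.17, edgeR adjusted p = 0.103). Hs3st1, a sulfotransferase of heparan sulfate, was at 46.8, 69.7 and 39.3 against 130, 176 and 79.3 CPM (1.29 ± 0.22, edgeR adjusted p = 0.117). Both genes had all deficient pools above all wild-type pools.

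Socs3, the feedback inhibitor of cytokine receptors that signal through STAT3, was at 442, 526 and 436 CPM in wild-type and 666, 808 and 575 CPM in deficient pools (0.54 ± 0.10, edgeR adjusted p = 0.117). Again the groups did not overlap. Sbno2, a transcriptional co-regulator, had a change of 0.60 ± 0.11, and Adnp2, a zinc finger homeobox protein, of 0.77 ± 0.14. Ssh1, a phosphatase that activates the actin-severing protein cofilin, had a change of 0.99 ± 0.17. Phldb2, which anchors microtubules at the basal cortex of epithelial cells, had 0.82 ± 0.14, and Arhgap17, another GTPase-activating protein, had 0.59 ± 0.11. Gm18445 (1.91 ± 0.35) is an unprocessed pseudogene with a copy, Ifi207, so its count is uncertain. Of the 20 genes named in the 2 directions, 9 overlap another annotated gene. The strand setting of the counting is not given, so reads of such neighbours cannot be told apart.

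**Figure D3:**
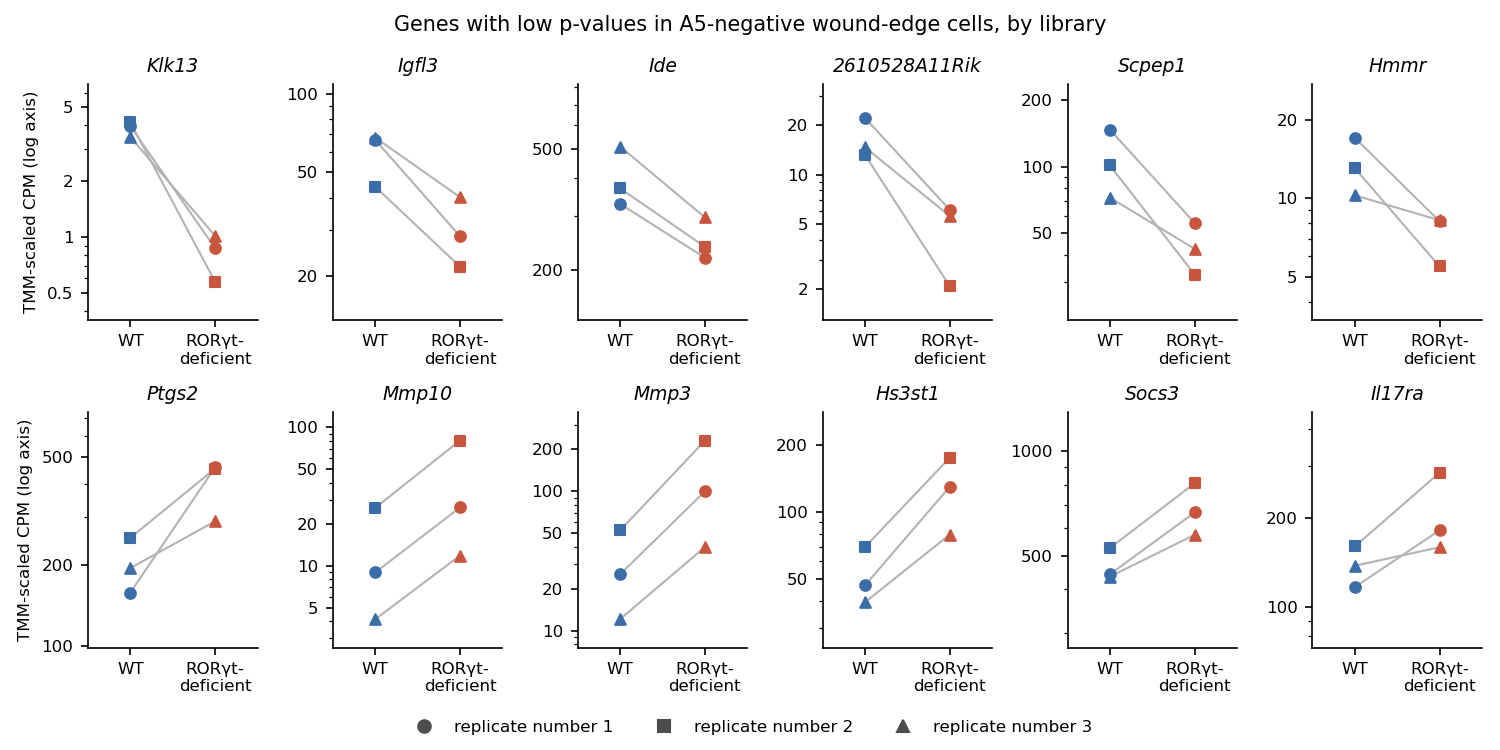
TMM-scaled CPM (log axis, with its own range in each panel) of 12 genes in the A5-negative libraries, wild type in blue and RORγt-deficient in red, with lines joining libraries of the same number. In every panel the 3 lines run the same way, downward in the upper row and upward in the lower row.

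Mmp10, the protease stromelysin-2, showed large differences between pools and a similar ratio within each pair. It was at 8.96, 26.2 and 4.11 CPM in wild-type pools 1 to 3 and at 26.4, 80.5 and 11.9 CPM in the same-numbered deficient pools (1.57 ± 0.26, edgeR adjusted p = 0.104). The genotypes overlapped, but the log2 ratios of the pairs were 1.55, 1.61 and 1.52. Mmp3, or stromelysin-1, was at 25.4, 52.5 and 12.1 against 100, 231 and 39.8 CPM (1.99 ± 0.39, edgeR adjusted p = 0.127). Mmp13, a collagenase, was at 14.98, 52.8 and 9.74 against 44.4, 208 and 22.1 CPM (1.67 ± 0.52, edgeR adjusted p = 0.1996). The level of all 3 genes was highest in pool 2 and lowest in pool 3 of each genotype. In the fit of the 6 A5-negative libraries alone the edgeR adjusted p-values were 0.00633 for Mmp10, 0.00235 for Mmp3 and 0.0285 for Mmp13. Mmp3 and Mmp13 were singled out here after their values were seen.

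The promoters of Mmp3 and Mmp10, neighbours on chromosome 9, are shown. Both genes were called in the fit of the 6 libraries alone, as were Gm3608, Hs3st1 and Mmp13. The 2 promoters shown are also those of the 10 searched that hold the AP-1 motif, so the display is not a test of it. The 250 bases before each start are given from RefSeq on GRCm38.p6, plus strand, 5′ to 3′. Capitals mark the AP-1 motif TGANTCA and the TATA box motif TATAAA. Both strands were searched, and the motifs do not overlap in these promoters. The AP-1 motif was found in 6.87% of 27025 promoters of that length, and TATAAA in 13.0%. A match describes the letters only. The promoters of Ptgs2, Hs3st1 and Socs3, which were also higher in all 3 pairs, hold neither motif in this window. Of 10 promoters of named genes searched, the AP-1 motif was in these 2, and that of Mmp13 was not searched. TATAAA was also in the promoters of Igfl3 and 2610528A11Rik, which were lower without RORγt. For Socs3, bases after the RefSeq start were not found near the start of a GENCODE M21 transcript of the gene.
Mmp3, chr9:7445572-7445821: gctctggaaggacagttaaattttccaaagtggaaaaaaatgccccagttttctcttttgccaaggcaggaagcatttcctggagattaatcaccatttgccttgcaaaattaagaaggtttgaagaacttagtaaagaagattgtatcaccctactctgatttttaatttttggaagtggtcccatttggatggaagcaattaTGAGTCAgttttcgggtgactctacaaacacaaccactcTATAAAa
Mmp10, chr9:7502092-7502341: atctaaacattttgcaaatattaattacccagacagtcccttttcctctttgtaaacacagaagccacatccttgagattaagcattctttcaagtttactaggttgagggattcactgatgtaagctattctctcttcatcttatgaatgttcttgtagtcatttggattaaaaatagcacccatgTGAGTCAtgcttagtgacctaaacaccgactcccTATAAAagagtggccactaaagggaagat

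Gene lists are described by their counts and their median log2 fold change, to be read beside the median over all genes of 0.01. No member of any of the 43 lists passed the edgeR test. Counts at an unadjusted p under 0.05 were smaller without the block, at 6 lower genes for proliferation, 0 for the respiratory chain, and 4, 7, 4 and 3 higher genes for the wound front, the immediate early, the IL-17 receptor and the IL-1 lists. Proliferation genes were lower for the most part. Of 43 tested, 40 had a change below 0, 22 of these had an unadjusted p under 0.05 and none did in the other direction, and 29 were lower in all 3 pairs. The median change was -0.45, with -0.38, -0.67 and -0.21 in pairs 1 to 3, and DESeq2 called 14 members lower. Birc5, the mitotic regulator survivin, was at 15.1, 7.85 and 9.22 CPM in wild-type and 6.61, 3.55 and 6.79 CPM in deficient pools (-0.93 ± 0.19, edgeR adjusted p = 0.129). Ccnb2, a mitotic cyclin, had a change of -0.70 ± 0.17, and Ube2c, which drives mitotic exit, of -0.74 ± 0.20. In A5-positive cells 41 of the 43 were below 0, with a median of -0.29. When each A5-negative library was left out in turn the median was between -0.59 and -0.34, and the 22 became 14 without deficient pool 2.

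Genes of the respiratory chain and ATP synthase were all below 0, in 40 of 40, with a median of -0.31. Of these, 17 had an unadjusted p under 0.05 and 35 were lower in all 3 pairs. Ndufv2, a subunit of complex I, was at 66.0, 39.2 and 53.5 CPM in wild-type and 36.7, 28.9 and 43.0 CPM in deficient pools (-0.52 ± 0.15, edgeR adjusted p = 0.173). The pairs differed, with medians of -0.64, -0.16 and -0.18, and without deficient pool 1 the fitted median was -0.13. The 17 became 4 without deficient pool 1, 9 without wild-type pool 1, 10 without wild-type pool 2 and 30 without deficient pool 2. Ribosomal protein genes were below 0 as well, in 40 of 40 with a median of -0.28, and the medians of the pairs were -0.73, -0.06 and -0.14. Of these genes 3 had an unadjusted p under 0.05, a number that was 24 without deficient pool 2, 21 without deficient pool 3 and 0 without deficient pool 1 or wild-type pool 1. Without deficient pool 1 the median was -0.06.

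Exon length moved with these values. The 3336 genes with the shortest exons (57 to 1964 bases in all) had a median change of -0.11 and the 3336 with the longest (6970 to 123179 bases) of 0.14. In pair 1 these medians were -0.31 and 0.29, whereas in pairs 2 and 3 they lay between -0.04 and 0.07. Across the 16677 genes the Spearman rank correlation of change and length was 0.21, a description over genes that share the same 6 libraries. The respiratory chain list has a median exon length of 2036.5 bases and the ribosomal list of 2011, against 3894 over all genes tested. With a length curve fitted to each library, an alternative chosen after the data were seen, the medians were -0.20 for the respiratory chain and -0.17 for ribosomal proteins. With that curve the proliferation list, with a median length of 4275, had -0.46.

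The stefins and cystatins, inhibitors of cysteine proteases, had the lowest median of the lists with 10 or more genes, at -0.88. All 10 were below 0, 5 with an unadjusted p under 0.05, or 2 without deficient pool 1. Stfa1 was at 17.2, 14.8 and 11.4 CPM in wild-type and 5.31, 5.10 and 7.11 CPM in deficient pools (-1.27 ± 0.40, edgeR adjusted p = 0.206). BC100530 was at 108, 85.5 and 81.7 against 38.4, 27.2 and 56.8 CPM, also with no overlap. Members of this gene cluster are close copies of each other, so the counts of each are uncertain, and their exons are short, with a median of 656.5 bases. Without wild-type pool 2 and without deficient pool 1 the median was -0.64. The kallikreins and serpins had a median of -0.37 with 13 of 19 below 0, and of -0.19 without all libraries numbered 1. Beside Klk13, the proteases Klk8 (-0.63 ± 0.14) and Klk5 (-0.76 ± 0.24) were lower, whereas Serpinb2, the plasminogen activator inhibitor 2, was higher. Serpinb2 was at 2039, 4317 and 2392 CPM in wild-type and 5138, 13354 and 3278 CPM in deficient pools (1.15 ± 0.29, edgeR adjusted p = 0.158). Cholesterol synthesis genes were below 0 in 20 of 26, with a median of -0.25, and those with an unadjusted p under 0.05 were 7 lower and 2 higher, or 4 and 1 without deficient pool 1.

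Genes induced at the front of a wound were higher for the most part, with 33 of 41 above 0 and a median of 0.26. Of these, 17 had an unadjusted p under 0.05 against 1 that was lower, and 22 were higher in all 3 pairs. The 17 became 11 without wild-type pool 1, wild-type pool 2 or deficient pool 1. Besides Ptgs2 and the metalloproteinases, Itga2, the α2 chain of a collagen-binding integrin, was at 29.5, 70.2 and 29.6 CPM in wild-type and 106, 168 and 40.2 CPM in deficient pools (1.23 ± 0.24, edgeR adjusted p = 0.127). Itgb6, the β6 integrin chain of wound keratinocytes, had a change of 0.88 ± 0.20. Basal keratinocyte genes were above 0 in 17 of 22 and below 0 in 5, with a median of 0.26. Their sums were not higher, at 49259, 49251 and 34292 CPM of total counts in wild-type and 49010, 44037 and 33538 in deficient pools. Krt14, the gene of a basal keratin, was at 19859, 20136 and 13926 against 16500, 14210 and 12202 CPM of total counts. Igfbp3, which binds insulin-like growth factors, was at 275, 551 and 272 against 715, 1339 and 355 CPM (1.03 ± 0.20). Without wild-type pool 1 the basal median was 0.15 and without all libraries numbered 1 it was 0.11. With the length curve it was 0.19, and the basal list has a median exon length of 5860.5 bases. Junction genes were above 0 in 24 of 30, with a median of 0.24. Tjp1, a scaffold protein of tight junctions, had a change of 0.58 ± 0.15, while the claudin gene Cldn8 was lower (-0.99 ± 0.28).

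Immediate early and heat shock genes, which also respond to cell dissociation, were above 0 in 36 of 40 with a median of 0.28. Of these, 18 had an unadjusted p under 0.05 and none of the lower ones did, and 24 were higher in all 3 pairs. Fosl1, an AP-1 subunit, was at 167, 224 and 206 CPM in wild-type and 266, 371 and 234 CPM in deficient pools (0.52 ± 0.16, edgeR adjusted p = 0.1996). Junb had 0.37 ± 0.12 and Egr1, a zinc finger transcription factor, 0.52 ± 0.17. The pair medians were 0.42, 0.35 and 0.05. The number with an unadjusted p under 0.05 was 4 without wild-type pool 2, 5 without deficient pool 1, 6 without wild-type pool 1 and 22 without deficient pool 3. How far handling of the cells enters these values was not tested.

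For the IL-17 pathway the receptor and its signalling proteins were considered apart from the response genes. Il17ra, the receptor subunit, was at 117, 160 and 138 CPM in wild-type and 182, 284 and 159 CPM in deficient pools (0.56 ± 0.14, edgeR adjusted p = 0.161), higher in all 3 pairs with overlapping groups. Of 24 receptor and signalling genes, 21 were above 0, 11 of them with an unadjusted p under 0.05 and none in the other direction. The median was 0.28, and 0.17 without deficient pool 1. With the length curve it was 0.23, and the list has a median exon length of 5534.5 bases. The 11 became 5 without wild-type pool 2, 6 without deficient pool 1 and 7 without deficient pool 3. Traf3ip2, which encodes ACT1, had a change of 0.37 ± 0.12, Traf6 of 0.35 ± 0.11, the NF-κB subunit gene Rela of 0.49 ± 0.13, and Arid5a, which stabilises mRNAs downstream of the receptor, of 0.71 ± 0.18.

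The keratinocyte response genes to IL-17 had no common direction. Of 38 tested, 23 were above 0 and 15 below, with 6 and 4 at an unadjusted p under 0.05 and a median of 0.15. Lcn2, the iron-binding antimicrobial protein lipocalin-2, was at 13.0, 11.2 and 15.9 CPM in wild-type and 4.82, 8.79 and 10.5 CPM in deficient pools (-0.76 ± 0.24, edgeR adjusted p = 0.1996). Every deficient pool was lower for this gene. Nfkbiz, the IκBζ gene, had a change of 0.41 ± 0.14, Tnfaip3, the NF-κB inhibitor A20, of 0.67 ± 0.18 and Il6 of 0.57 ± 0.19. The pair medians of the list were 0.00, -0.17 and 0.21, and the fitted median was -0.02 without deficient pool 3, -0.04 without all libraries numbered 3, 0.05 without wild-type pool 1 and 0.27 with the length curve.

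Cytokine genes of the IL-1 family and of the IL-22, IL-20 and IL-6 axis were above 0 in 25 of 31, with a median of 0.24 and 11 at an unadjusted p under 0.05 against 1 lower. The IL-6 family receptor gene Il6st was at 156, 260 and 236 CPM in wild-type and 282, 385 and 296 CPM in deficient pools (0.58 ± 0.11, edgeR adjusted p = 0.127). Il1rap, the accessory chain of IL-1 receptors, had a change of 0.60 ± 0.12 and Il1a of 0.75 ± 0.22. Il18 was lower, at 4.36, 1.67 and 2.23 against 1.52, 0.859 and 1.11 CPM (-1.18 ± 0.31, edgeR adjusted p = 0.163). Without deficient pool 1 the list's median was 0.13, and without wild-type pool 2 it was 0.14 with 6 higher genes in place of 11.

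**Figure D4:**
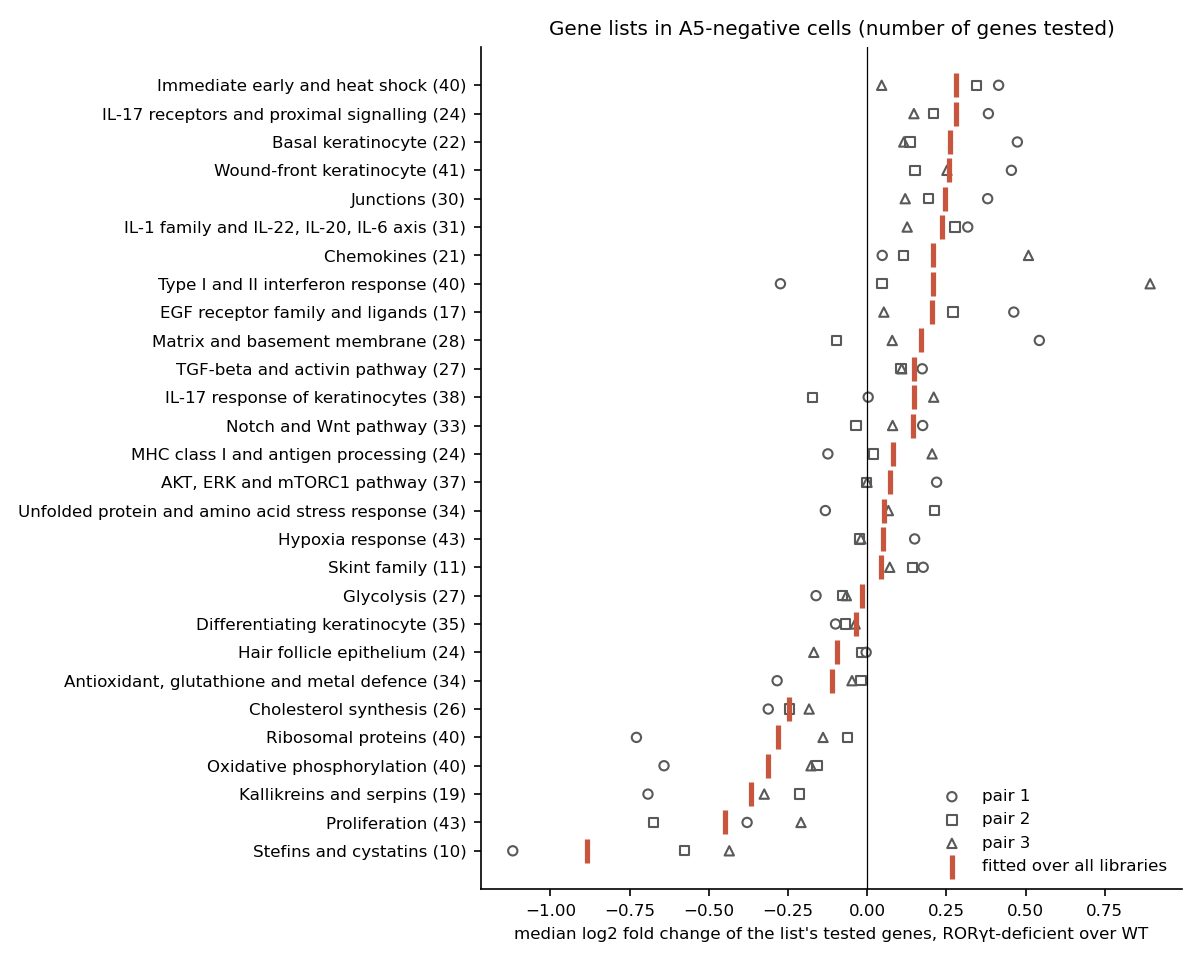
Median log2 fold change (RORγt-deficient over wild type) of each gene list with 10 or more tested genes, ribosomal proteins included and marker lists of other cell types left out, with the number of genes in parentheses. Red marks are the fit over all libraries and open symbols are the medians of pairs 1 to 3; the lists run from -0.88 for stefins and cystatins to 0.28 for immediate early genes.

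Hypoxia response genes had a median of 0.05 with 26 of 43 above 0. Adm, the peptide hormone adrenomedullin, was at 35.1, 49.3 and 43.2 CPM in wild-type and 72.2, 92.9 and 53.5 CPM in deficient pools (0.77 ± 0.20, edgeR adjusted p = 0.163). Glycolysis genes had a fitted median of -0.02 in A5-negative cells, with 12 above and 15 below 0, and of -0.39 in A5-positive cells. The A5-negative pair medians were all below 0, at -0.16, -0.08 and -0.07. Of the 27 genes, 12 were lower in all 3 pairs and 4 higher, beside 20.7% and 20.4% of all genes. Sums were 7424, 7246.6 and 6747 CPM of total counts in wild-type and 5865, 6068 and 6446.5 in deficient pools, without overlap. Hk2, which phosphorylates glucose, was higher (0.36 ± 0.12), and Eno1 (-0.32 ± 0.15) and Gapdh (-0.34 ± 0.18) were lower in all 3 pairs. The AKT, ERK and mTORC1 list had 0.07, and Mapk3, the kinase ERK1, was at 91.0, 80.1 and 96.3 against 71.0, 62.1 and 76.8 CPM (-0.35 ± 0.10, edgeR adjusted p = 0.185). Interferon response genes were above 0 in 33 of 40 with a median of 0.21, and 3 had an unadjusted p under 0.05. Their pair medians were -0.27, 0.05 and 0.89, and the fitted median was -0.11 without deficient pool 3 and -0.09 without wild-type pool 3. Sebocyte markers were below 0 in 17 of 19, with a median of -0.52, but 2 had an unadjusted p under 0.05. The pair medians were -1.22, 0.01 and -0.49. The fitted median was -0.23 without deficient pool 1, -0.19 without all libraries numbered 1, and -0.96 without deficient pool 2. Their sums were 9710, 9342 and 13748 CPM of total counts in wild-type and 6272, 7664 and 11401 in deficient pools. Most of each sum came from the keratin gene Krt79, at 7426, 7490.5 and 10061 against 4947, 6057 and 8624 CPM of total counts. Fabp5, a fatty acid-binding protein that keratinocytes also make, was at 322, 216 and 353 against 125, 104 and 240 CPM (-0.93 ± 0.28). Differentiating keratinocyte genes had 16 above and 19 below 0.

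Whether the genotype effect differed between A5-negative and A5-positive cells was tested as an interaction. No gene passed in edgeR, where the lowest adjusted p was 0.519. Of the 16677 genes, 910 had an unadjusted p under 0.05 (5.46%), a share near the threshold itself. DESeq2 called 25. Libraries of one genotype and number deviated together in the A5-negative and A5-positive fractions, so values of A5-positive cells given here are not independent of those of A5-negative cells. Igfl3 had a change of -0.998 ± 0.15 in A5-negative cells and of -0.44 ± 0.14 in A5-positive cells, and the difference did not pass (edgeR unadjusted p = 0.0207, adjusted p = 0.914).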

How the data were processed

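RNA was measured in 12 libraries made with SMART-Seq v4 and ThruPLEX, per the labels' protocols. Per the submitters' processing notes, reads went through featureCounts and STAR on mm10 (GRCm38), with Trimmomatic 0.36 and bcl2fastq also listed. Strand setting and annotation release are not stated in the sources used here. Raw read counts per gene symbol were deposited by the authors. Of 55341 rows, 26 with dates for symbols (0.110% to 0.128% of counts) were left out, and all 55315 others matched GENCODE M21.

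Counts were analysed with edgeR 4.0.16 (R 4.3.3): TMM factors (0.919 to 1.08), filterByExpr by group, 4 groups plus the replicate number over all 12 libraries, quasi-likelihood F tests and Benjamini-Hochberg adjustment over all genes tested. Sharing all 12 libraries gives a common estimate of the spread over both fractions. The fit treats libraries as independent apart from the replicate number. Libraries of one genotype and number deviated together across the fractions, so its p-values do not measure variation among pools alone. Standard errors were derived from the change and its F statistic. No molecular identifiers are given, so the limit beside a count of 0 covers counting error only. Residuals of same-numbered libraries correlated in all 18 pairings (0.153 to 0.722 over 9071 genes; 0.322 to 0.607 for the 3 A5-negative pairs), so the numbers pair the libraries. No 2 libraries of a group agreed within sampling noise. Copies were found with BLAST 2.17.0+ (at least 90% identity over 200 bases of transcript). The scripts were tested on simulated data.

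The comparison, the gene lists and the tests were chosen with earlier results of these data known. The rule for named genes took Il17ra, the sort markers and, in each direction, the 10 genes with the smallest p whose mean log2 CPM was 3 or more, plus the member of each list with the smallest p. List members given as examples beyond these were chosen after their values were seen. Some genes that the rule names are not reported here. Alternatives were RLE factors, DESeq2 1.42.0, voom (limma 3.58.1), other filters, no block, the 6 libraries alone, each library left out, and a length curve added after the data were seen.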

Additional observations from a re-analysis of the deposited data

How the results depend on the processing

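Gm3608 passed in every alternative fit of A5-negative cells. The 1 gene called became 5 in the 6 A5-negative libraries alone with the replicate block, 635 with DESeq2, 2 with voom and quality weights, 475 without a filter and 7 with the length curve, and it ran from 1 to 4 with libraries left out. The cause was not tested. It stayed 1 with RLE factors, the stricter filter or no replicate block. Without the replicate block the 1470 higher and 1052 lower genes with an unadjusted p under 0.05 became 491 and 358, and in the 6 libraries alone without the block 736 and 597. With voom they were 925 and 749. With libraries left out, the higher genes ran from 690 to 1581 and the lower from 539 to 1313. Without deficient pool 1 they were 690 and 553, without wild-type pool 2 the higher were 775, and without all libraries numbered 1 they were 847 and 539. The share of higher genes among them was 58.3%, and 46.5%, 45.9% and 49.6% without wild-type pool 2, without wild-type pool 3 and without all libraries numbered 3. The interaction gave 25 genes with DESeq2 and 30 without a filter, and 0 otherwise. Of 1335 refits of 75 single genes, 11 changed direction. Epcam became -0.03 without wild-type pool 2, -0.06 without deficient pool 2 and -0.092 without all libraries numbered 2, with 0.19 as the highest value with libraries left out. Ptprc became -0.041 without the replicate block and -0.043 in the 6 libraries alone without it, -0.20 with the length curve, -0.36 without wild-type pool 2, -0.27 without wild-type pool 3, -0.23 without deficient pool 3, -0.0036 without all libraries numbered 2 and -0.41 without all numbered 3, and it was 1.17 without wild-type pool 1.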
